A study of Mus musculus with 8 samples.

Results

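Circadian clock genes were examined in sorted CD4+CD25+ lymphocytes, which are rich in regulatory T cells, from the para-aortic (uterus-draining) lymph nodes of mice on day 9.5 of pregnancy. Of 7 clock genes looked for by name, 6 were found among the 6986 genes with a probe set annotated to a single symbol: Npas2, Per1, Cry1, Nr1d1, Nr1d2 and Tef, each with 1 probe set. The 1 probe set annotated to Per2 also lists a second gene, so Per2 was not analysed here. The rule that chose them used names and roles and no measured value, but it was written with earlier results of these data known.

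The first group was 4 arrays labelled IL10-/-, from mutant mice crossed back through the same C57BL/6 colony, whose drinking water held the antibiotic oxytetracycline at 2 mg/ml to prevent colitis. The other group was 4 arrays labelled IL10+/+, from C57BL/6 mice for which no antibiotic is stated, so genotype and antibiotic cannot be told apart. Dams of both groups were kept in a cycle of 12 h light and 12 h dark, and each array held RNA pooled from 2 to 4 of them. No label gives the hour at which the nodes were taken, and its part in any value below was not tested.

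The mammalian clock is a feedback loop of transcription. CLOCK or its relative NPAS2 pairs with BMAL1 and switches on the Per, Cry and Nr1d genes from DNA elements called E-boxes. PER and CRY proteins then repress that pair, and the REV-ERB receptors repress Bmal1 and Npas2. T cells and lymph nodes hold such clocks. In mouse peripheral tissues, Nr1d1, Nr1d2, Per1 and Tef are known to peak in or at the end of the light phase, and Npas2 and Cry1 later.

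The E-box is the element through which the activator pair of this loop acts on its targets. The stretches below show it in the genes whose promoter windows hold one of the spellings searched. RefSeq promoter windows of assembly GRCm38.p6, each from 250 bases before to 50 after a start site, were matched for all 6 genes, 8 windows in all because Per1 and Tef have 2 each. Both strands were searched. The E-box letters CACGTG stood in 7.15% of the 32851 promoters in the table and in 4 of the 8 windows: that of Cry1, both of Tef and 1 of the 2 of Per1. The related letters CACGTT stood in 4.68% of promoters and in the windows of Cry1 and Nr1d1. The stretches run 5′ to 3′ along the gene, and capitals mark the match (AACGTG is CACGTT read on the other strand). In the Cry1 stretch capitals mark CACGTG only. Its CACGTT match, 79 bases before the start site, stands in the same stretch as aacgtg in lower case.
Per1 (chr11:69098756-69098815, plus strand, first capital 166 bases before the start site): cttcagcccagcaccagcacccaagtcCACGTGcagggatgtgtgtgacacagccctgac
Cry1 (chr10:85185082-85185141, minus strand, 60 bases before): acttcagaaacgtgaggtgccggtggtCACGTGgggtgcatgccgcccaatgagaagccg
Tef, first window (chr15:81802519-81802578, plus strand, 127 bases before): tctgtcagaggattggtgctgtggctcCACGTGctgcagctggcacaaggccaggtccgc
Tef, second window (chr15:81811249-81811308, plus strand, 138 bases before): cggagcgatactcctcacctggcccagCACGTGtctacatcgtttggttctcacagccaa
Nr1d1 (chr11:98775373-98775432, minus strand, 28 bases before): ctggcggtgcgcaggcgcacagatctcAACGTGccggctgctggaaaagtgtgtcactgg

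Neither E-box spelling was among the letters of the Npas2 and Nr1d2 windows. The letters AGGTCA, which REV-ERB and other nuclear receptors bind within longer elements, stood in 16.26% of promoters and in the windows of Nr1d2 and of Per1, where 1 of the 2 held it. The D-box letters TTATGTAA and TTACGTAA, read by TEF and its relatives, and the cAMP response element TGACGTCA were in 0 of the 8 windows, against 0.94%, 0.12% and 1.79% of promoters. A match describes the letters and is not evidence of binding.

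Before the results, 2 arrays need naming. IL10-/- replicate 2 and IL10+/+ replicate 4 stood apart, with scores of 16.6 and 17.8 on a first principal component that held 31.1% of the variance, where the others ran from -13.3 to -2.72. Array medians lay between 6.97 and 7.12. The interquartile range of the signals was narrower in these 2 arrays, at 2.15 and 2.17, than in the others, at 2.32 to 2.58. It was widest in IL10+/+ replicate 2. The part of this difference in spread in the values below was not tested. Il10 itself read 8.65 to 9.42 in the arrays labelled IL10-/- and 7.50 to 8.51 in those labelled IL10+/+. Which part of Il10 is disrupted is not stated, so this checks no label. Of the 4 measured genes of the regulatory T cell list, Ikzf2, Icos and Socs2 averaged 11.4, 11.7 and 8.27 over the 8 arrays, and Ctla4, named for its role and outside the rule for named genes, averaged 11.3. Foxp3, Il2ra and Cd4 were not analysed here. In pooled cells, fewer cells of a type and less RNA per cell cannot be told apart.

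None of the 6 clock genes differed between the arrays labelled IL10-/- and those labelled IL10+/+ by more than the test allows. By limma, with p-values adjusted over all 6986 genes, 0 of 6 passed the threshold of 0.05, and 0 of 6 had an unadjusted p under 0.05. The background in this comparison was 0.0286% of genes past the adjusted threshold (2 genes) and 4.78% at an unadjusted p under 0.05. The groups overlapped for all 6 genes, where 2.92% of all genes did not overlap. The differences, IL10-/- minus IL10+/+ in log2 units throughout, ran from -0.13 for Per1 to 0.12 for Tef, 3 positive and 3 negative, with a median of 0.01 against 0.00 over all genes. Every adjusted p by limma was 0.999.

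Npas2 encodes the activator that can stand in for CLOCK as the partner of BMAL1. Its log2 signals in replicates 1 to 4 were 7.24, 7.10, 7.04 and 6.91 in the arrays labelled IL10-/-, against 6.85, 7.05, 6.97 and 7.11 in those labelled IL10+/+. The highest and lowest arrays, replicate 1 of each group, lay 0.38 apart, and the groups overlapped. Means of 7.07 ± 0.14 and 6.99 ± 0.11 (SD, n = 4 each) gave a difference of 0.07 (SE 0.11), with a 95% interval of -0.16 to 0.31. Npas2 was dim: of 230 olfactory receptor genes, which T cells are not known to use, 14 gave a higher mean signal. A probe set's brightness also depends on its sequence, so this is a guide to background only. In RefSeq, 3 gene models (Gm17904, Gm20428 and Gm3617) overlap Npas2, and where the probes lie is not given in the sources used here.

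Per1 encodes a period protein that represses the activators in a complex with cryptochromes, and its transcription also responds quickly to glucocorticoids and cAMP. It read 8.69, 8.33, 8.37 and 8.48 in the arrays labelled IL10-/-, against 8.53, 8.61, 8.65 and 8.60 in those labelled IL10+/+. Of the arrays labelled IL10-/-, 3 lay below every array labelled IL10+/+, but IL10-/- replicate 1 was the highest of all 8. The means were 8.47 ± 0.16 and 8.60 ± 0.05 (SD, n = 4 each), the difference was -0.13 (SE 0.10) and its 95% interval ran from -0.36 to 0.10. Without IL10-/- replicate 1 the difference was -0.21, still with an adjusted p of 0.999 by limma. The interval's bounds correspond to 0.78-fold and 1.07-fold.

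Per1 was lowest in IL10-/- replicate 2, one of the arrays that stood apart. Of the 9 measured immediate early and handling genes, 6 were also lowest there, against 938 of all 6986 genes. Egr2, a transcription factor induced by T cell receptor signals, read 8.80 in that array and 9.48 to 9.90 in the other 7. Fos, named after its values were seen, read 6.51 there and 7.31 to 7.79 elsewhere. Hsp90aa1 of the same list, also named after its values were seen, went the other way. At 9.77 it was the 1 gene of the 9 that was highest there, as were 1407 of all 6986 genes. Rgs1, also named after its values were seen, had the highest difference of the 9, 0.20. It read 10.40 in that array, within the 10.10 to 10.57 of the other 7. Without this array the Per1 difference was -0.09. None of the 9 genes passed the test. Their median difference was -0.18, but 0.01 without IL10-/- replicate 2, -0.09 without IL10+/+ replicate 3 and -0.06 with both arrays apart from the rest left out. The part of handling in the Per1 values was not tested.

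Cry1 encodes a cryptochrome, a strong repressor of the loop. It read 9.03, 8.91, 8.86 and 8.98 in the arrays labelled IL10-/-, against 8.93, 8.77, 8.64 and 9.01 in those labelled IL10+/+. The groups overlapped, with the lowest signal in IL10+/+ replicate 3. Means of 8.95 ± 0.07 and 8.83 ± 0.16 (SD, n = 4 each) gave a difference of 0.11 (SE 0.11, 95% interval -0.13 to 0.35). It was 0.05 without IL10+/+ replicate 3 and 0.17 without IL10+/+ replicate 4.

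Nr1d1 encodes REV-ERBα, a heme-binding receptor that silences Bmal1 and Npas2. Its signals were 8.38, 8.50, 8.47 and 8.45 in the arrays labelled IL10-/-, against 8.57, 8.45, 8.49 and 8.48 in those labelled IL10+/+. All 8 arrays fell within 0.19 of each other, a span of 1.14-fold. The means were 8.45 ± 0.05 and 8.50 ± 0.05 (SD, n = 4 each), and the difference was -0.05 (SE 0.09, 95% interval -0.24 to 0.15). The arrays of this gene alone would give an SE of 0.035. limma's SE is larger because it draws each gene's spread toward that of all genes. In the RefSeq table Nr1d1 overlaps Thra, the thyroid hormone receptor gene on the opposite strand, and the place of its probes is likewise not given. Thra differed by 0.03 (SE 0.11).

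Nr1d2 encodes REV-ERBβ, the second receptor of this pair. It read 9.42, 8.86, 9.38 and 9.20 in the arrays labelled IL10-/-, against 9.33, 9.63, 9.48 and 8.88 in those labelled IL10+/+. The lowest signals, 8.86 and 8.88, were those of the 2 arrays that stood apart, and the other 6 lay between 9.20 and 9.63. Means of 9.22 ± 0.26 and 9.33 ± 0.32 (SD, n = 4 each) gave a difference of -0.11 (SE 0.18, 95% interval -0.50 to 0.27). It was -0.14 (SE 0.12) without both of those arrays, 0.00 without IL10-/- replicate 2 alone, -0.26 without IL10+/+ replicate 4 alone and -0.01 without IL10+/+ replicate 2.

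Tef encodes thyrotroph embryonic factor, a bZIP activator that carries the rhythm from E-boxes to D-box genes. It read 6.86, 6.63, 6.69 and 6.83 in the arrays labelled IL10-/-, against 6.57, 6.36, 6.67 and 6.94 in those labelled IL10+/+. The highest and the lowest signal both came from arrays labelled IL10+/+, replicates 4 and 2. Means of 6.75 ± 0.11 and 6.64 ± 0.24 (SD, n = 4 each) gave a difference of 0.12 (SE 0.13, 95% interval -0.17 to 0.40). It was 0.02 without IL10+/+ replicate 2, 0.22 without IL10+/+ replicate 4 and 0.26 without both arrays that stood apart. Tef was dim, with 22 of the 230 olfactory receptor genes above its mean.

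**Figure D1:**
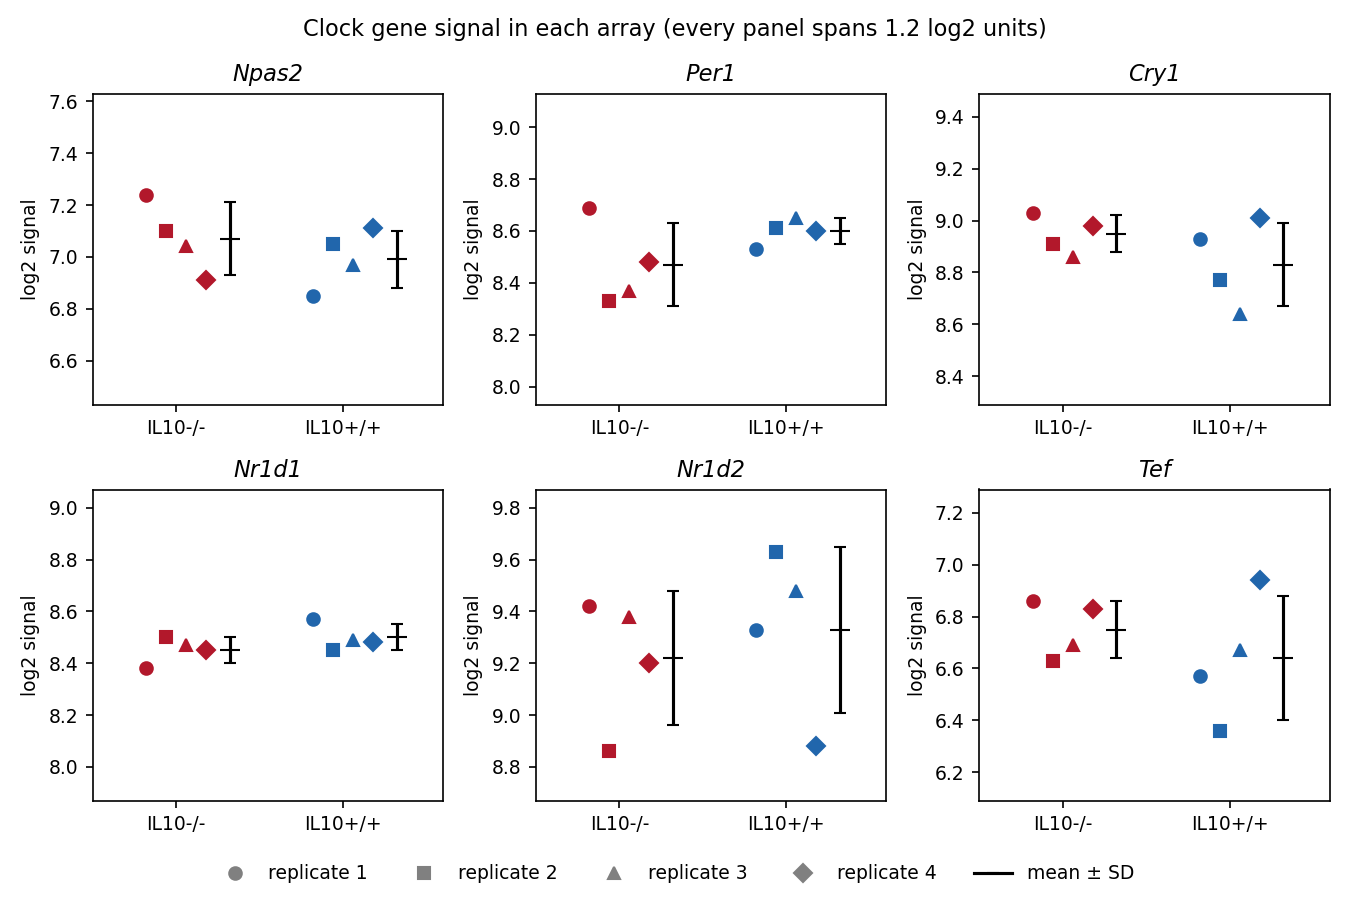
Log2 signal of the 6 clock genes in each array, with IL10-/- arrays in red on the left and IL10+/+ arrays in blue on the right of each panel, marker shape giving the replicate number and black bars the mean ± SD. The groups overlap in every panel, Nr1d1 lies within 0.19 across all 8 arrays, and the lowest Nr1d2 signals are those of IL10-/- replicate 2 and IL10+/+ replicate 4.

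The wider clock machinery was described from a list of 46 other clock genes, 14 of which were measured. Clock, Arntl (which encodes BMAL1), Per3, Cry2 and Dbp were listed but not measured, so the counts below say nothing of them. By limma 0 of 14 passed the adjusted threshold and 0 of 14 had an unadjusted p under 0.05, with 9 positive and 5 negative differences and a median of 0.03, which ran from -0.01 to 0.06 with 1 array left out. The largest were in Nampt (0.21, SE 0.13), which makes the NAD+ precursor that feeds the deacetylase SIRT1, and in Cipc (0.19, SE 0.14), an inhibitor of CLOCK. The lowest were in Fbxw11 (-0.39, SE 0.24), a ubiquitin ligase subunit that marks PER proteins for decay, and in Fbxl21 (-0.29, SE 0.15), whose ligase acts on cryptochromes. Fbxw11 was lowest, at 8.55 and 9.03, in the 2 arrays that stood apart. Fbxl21 was dim, with 27 of the 230 olfactory receptor genes above its mean of 6.49.

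The size of these 4 differences rested in part on single arrays. Nampt was 0.13 without IL10-/- replicate 1 and 0.11 without IL10+/+ replicate 4. Cipc was 0.34 without IL10-/- replicate 2, 0.12 without IL10-/- replicate 3 and 0.36 without both arrays that stood apart. Fbxw11 was -0.20 without IL10-/- replicate 2 and -0.25 without IL10+/+ replicate 3, and Fbxl21 was -0.16 without IL10+/+ replicate 2.

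The D-box repressor gene Nfil3 and the D-box activator gene Hlf, partners of Tef in the output of the clock, differed by 0.07 (SE 0.12) and 0.01 (SE 0.10). Sirt1 differed by -0.09 (SE 0.11), Klf10, an early clock-controlled zinc finger gene, by 0.02 (SE 0.11), and Timeless, better known in mammals for replication forks, by 0.00 (SE 0.10). Nfil3 read 8.40, 8.39, 8.45 and 8.33 in the arrays labelled IL10-/-, against 8.02, 8.30, 8.43 and 8.55 in those labelled IL10+/+, where replicate 1 was the lowest of all.

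**Figure D2:**
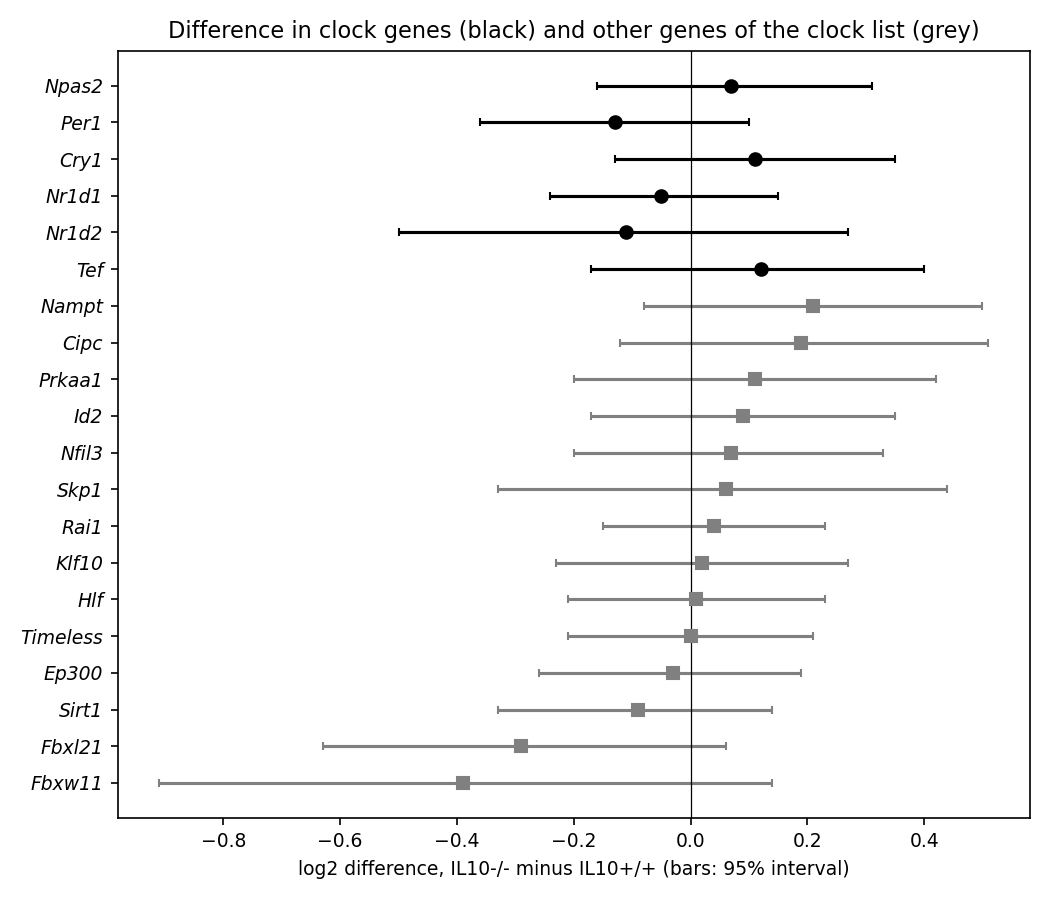
Log2 difference, IL10-/- minus IL10+/+, of the 6 clock genes (black circles) and the 14 other measured genes of the clock list (grey squares), with 95% intervals from limma as bars. Every interval includes 0, and the point estimates run from -0.39 for Fbxw11 to 0.21 for Nampt.

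How far the clock genes varied between arrays of one group was then set against all genes. The within-group SD was 0.050 for Nr1d1, 0.118 for Per1, 0.125 for Npas2, 0.127 for Cry1, 0.188 for Tef and 0.291 for Nr1d2, against a median of 0.184 over all genes. Nr1d1 was thus among the steadiest genes: 0.6% of all genes had a smaller SD, and 0.3% of the 1000 genes nearest to it in signal. For Per1 and Cry1 the share of genes of like signal with a smaller SD was 10.1% and 13.3%, for Npas2 19.3% and for Tef 60.2%. Nr1d2 varied most of the 6, with 75.2% of genes of like signal below it. Its range over the 8 arrays was 0.77, or 1.71-fold.

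These ranks depended on the scaling. For Nr1d1 the share of all genes with a smaller SD was 20.6% after quantile normalization between arrays (SD 0.114) and 3.7% after centring on array medians (SD 0.074). For Cry1 the share was 20.6% as deposited, 52.1% after quantile normalization and 30.8% after centring. For Per1 it was 16.3%, 21.4% and 31.6% in the same order, for Npas2 19.2%, 28.6% and 27.3%, for Tef 52.3%, 48.1% and 47.3%, and for Nr1d2 84.3%, 68.2% and 88.4%. The array medians themselves spanned 0.15, close to the 0.19 spanned by Nr1d1. Each array is an average over 2 to 4 mice, so the spread between single animals was not measured.

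**Figure D3:**
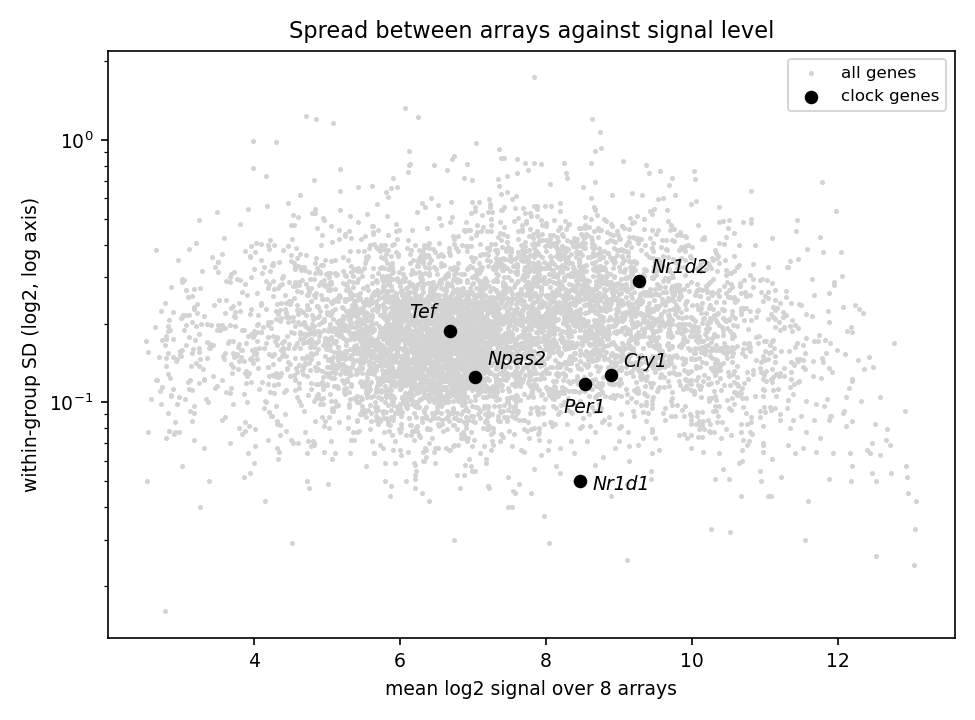
Within-group SD of the log2 signal (log axis) against mean log2 signal over the 8 arrays for all genes (grey) and the clock genes (black). Nr1d1 lies at the lower edge of the cloud at 0.050 and Nr1d2 in its upper part at 0.291.

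Covariation between arrays was measured over the 15 pairs of the 6 genes, after each gene was centred on its group means. Pearson's r was positive in 7 pairs and negative in 8, with a median of -0.04. After centring on array medians it was positive in 10 and negative in 5, and after quantile normalization positive in 9 and negative in 6. By exact two-sided permutation of arrays within groups (576 orderings), 0 of 15 pairs passed after adjustment over the 15 pairs, and 1 pair had an unadjusted p under 0.05.

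That pair was Per1 and Nr1d1, with r = -0.83 (exact permutation p = 0.0122, adjusted p = 0.182) and Spearman's rho = -0.81 (exact permutation p = 0.0174, adjusted p = 0.26) over 8 arrays. Of all 6985 other genes, ordered from the highest r with Per1 to the lowest, Nr1d1 ranked 6933. The relation was -0.66 without the 2 arrays farthest in Per1, IL10-/- replicates 1 and 2, and -0.79 without both arrays that stood apart. It was -0.35 before the group means were removed, -0.06 after centring on array medians and 0.02 after quantile normalization, so its size and direction depended on the scaling of a gene that spans 0.19.

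Npas2 and Nr1d1, activator and repressor of one arm of the loop, gave r = -0.68 (exact permutation p = 0.101, adjusted p = 0.579) and rho = -0.74 (exact permutation p = 0.066, adjusted p = 0.495). The r was -0.77 without the 2 arrays farthest in Npas2, -0.84 without both arrays that stood apart, -0.37 after quantile normalization and -0.19 after centring on array medians. The receptor pair Nr1d1 and Nr1d2 gave r = -0.40 (exact permutation p = 0.347, adjusted p = 0.579) and rho = -0.45 (exact permutation p = 0.295, adjusted p = 0.687). Without the 2 arrays farthest in Nr1d1 it was -0.55, and without both arrays that stood apart -0.79. It was -0.81 after quantile normalization (exact permutation, adjusted p = 0.117) and 0.41 after centring on array medians, so its direction too depended on the scaling. Cry1 and Nr1d2 gave r = -0.50 (exact permutation p = 0.311, adjusted p = 0.579) and rho = -0.48 (exact permutation p = 0.323, adjusted p = 0.687), and -0.12 without the 2 arrays farthest in Cry1. It was -0.90 after quantile normalization (exact permutation, adjusted p = 0.117), the lowest r of that setting, but -0.06 after centring on array medians and -0.08 without IL10+/+ replicate 4.

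Pairs among Per1, Cry1 and Tef, the 3 genes with CACGTG in the stretches printed above, had r of 0.18 to 0.54, and Npas2, whose window held neither E-box spelling, had r of 0.22 to 0.49 with the same 3 genes. Cry1 and Tef gave the highest r of the 15 pairs, 0.54 (exact permutation p = 0.339, adjusted p = 0.579; rho = 0.45, exact permutation p = 0.366, adjusted p = 0.687). It was 0.91 without the 2 arrays farthest in Cry1, IL10+/+ replicates 3 and 4, and 0.05 without both arrays that stood apart. Per1 and Tef gave r = 0.38 (exact permutation p = 0.193, adjusted p = 0.579; rho = 0.38, exact permutation p = 0.342, adjusted p = 0.687), and 0.24 without the 2 arrays farthest in Per1. Per1 and Cry1 gave r = 0.18 (exact permutation p = 0.556, adjusted p = 0.773; rho = -0.07, exact permutation p = 0.887, adjusted p = 0.951), and -0.30 without those 2 arrays. None of these relations passed.

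**Figure D4:**
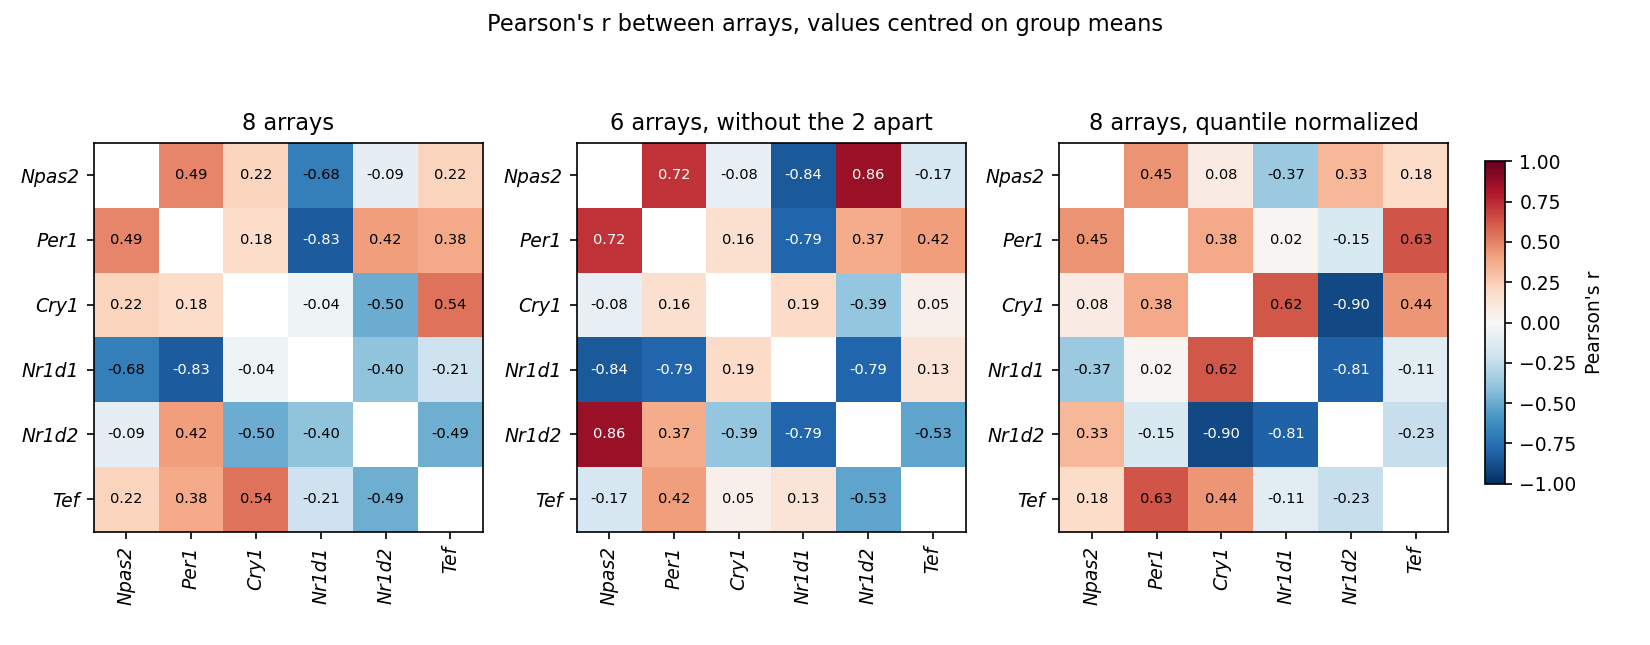
Pearson's r between pairs of clock genes over arrays, values centred on group means, for all 8 arrays (left), the 6 arrays left without IL10-/- replicate 2 and IL10+/+ replicate 4 (middle), and all 8 arrays after quantile normalization (right). Per1 with Nr1d1 is -0.83, -0.79 and 0.02 in the 3 panels, and Npas2 with Nr1d2 is -0.09, 0.86 and 0.33.

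The genes most like each clock gene over the 8 arrays were, as a description, the 3 with the highest r among genes at or above the median signal that have a name of their own (numbered gene models, Rik clones, and microRNA, small nucleolar RNA, olfactory receptor and antigen receptor segment genes were left out). For Nr1d2 these were Lypla1, an acyl-protein thioesterase gene (0.988), Rhot1, which encodes a mitochondrial transport GTPase (0.987), and the mitochondrial ribosome gene Mrpl54 (0.986). For Nr1d1 they were Nop58 (0.962), a core protein of small nucleolar particles, Ctage5 (0.943) and Dlg4 (0.941). For Tef they were the pseudokinase gene Trib1 (0.964), Tmed8 (0.959) and the protein kinase C gene Prkca (0.938).

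For Cry1 they were Utp25 (0.963), Ptrhd1 (0.955) and Lyrm9 (0.952). Npas2 was closest to Lpin1, which encodes the lipid phosphatase lipin 1 (0.950), Grasp (0.919) and the kinase scaffold gene Ksr1 (0.912). Per1 was closest to the phosphatase subunit gene Ppp6r2 (0.929), the glutamate dehydrogenase gene Glud1 (0.924) and Tgfbrap1 (0.918). With IL10-/- replicate 2 and IL10+/+ replicate 4 left out, these 18 values of r lay between 0.88 and 0.98. Each was picked as among the highest of 3187 or 3188 on these same arrays, so high values follow from the choice and test nothing.

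Markers of other cells that a sort can carry over overlapped between the groups. The mean over 4 measured B cell genes of 12 listed ran from 6.90 to 7.27 in the arrays labelled IL10-/- and from 6.77 to 6.94 in those labelled IL10+/+. For 7 of 14 myeloid genes the ranges were 7.50 to 8.01 and 7.63 to 7.80. IL10-/- replicate 2 was the highest of all arrays for 3 of them, and for 1407 of all 6986 genes. Named after their values were seen, these were Lyz2 (8.20 there, 6.70 to 7.27 elsewhere), Cd68 (8.58, 7.84 to 8.57) and Fcgr3 (7.23, 6.98 to 7.14). The other myeloid genes were highest in other arrays. Of the B cell genes only Cr2, also named after its values were seen, was highest there, at 7.08 against 5.82 to 6.35 elsewhere. For 6 of 10 genes of stroma and endothelium the ranges of the mean were 6.53 to 6.69 and 6.60 to 6.73. For 2 of 7 red cell and platelet genes they were 6.97 to 7.24 and 6.84 to 7.19. By limma 0 of these 19 genes passed, and 0 had an unadjusted p under 0.05. The brightest, Pecam1 at 9.89 and Ly6c2 at 9.80 over 8 arrays, named after their values were seen, are also expressed by T cells. The part of these cells in the clock gene values was not tested.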

How the data were processed

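Total RNA of sorted cells was amplified and hybridized to Affymetrix Mouse Gene 2.0 ST arrays, per the labels' protocols. The authors deposited log2 expression values. Per the series' design text, these came from Partek Genomics Suite with an RMA background step, Partek's GC correction and the mean of the probes. Affymetrix Expression Console is a further tool in the submitters' processing notes. The sources used here give no program versions, batches or genome build for the array.

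Of 16378 probe sets, 7358 had 1 annotated gene, 456 several and 8564 none. Symbols were updated through Entrez identifiers to RefSeq (GRCm38.p6; 7310 matched). Where a gene had several probe sets, the one with the highest mean was taken, which left 6986 genes, of which 99.6% of those with a known place were on chromosomes 1 and 10 to 15, with no filter on signal.

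Groups were compared with limma 3.58.1 (lmFit, eBayes) in R 4.3.3, with Benjamini-Hochberg adjustment. It was tested on simulated data of 6986 genes for this comparison, where it recovered 87% of genes changed by 1 log2 unit and 97% of those changed by 2. The simulated noise was normal and independent, with no array apart, and more genes were changed than passed the threshold in the data. Changes as small as the clock gene differences were not simulated, so these shares say nothing of them. Replicates are separate pools of mice, and their number limits the precision. Correlations used Pearson's r and Spearman's rho with exact permutation within groups. A design for 7 genes became 15 pairs of 6 genes, because Per2 was left out.

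The clock genes and all gene lists were chosen with earlier results of these data known. The text names the 6 genes, the 2 largest and 2 smallest differences and 7 preset genes of the clock list, and at most 3 genes of other lists by smallest p, with exceptions marked. The alternatives were quantile normalization, centring on array medians, trend and robust settings, array weights, a filter at the median signal, the mean of probe sets, a replicate block, and leaving out arrays. Same-numbered arrays are not stated to share animals, and their deviations from the group means correlated at 0.05, -0.32, 0.03 and -0.19 across genes, so the numbers were not used as pairs.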

Additional observations from a re-analysis of the deposited data

How the results depend on the processing

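No clock gene passed limma's threshold under any of the alternatives run, 16 for most genes and 15 for Npas2 and Tef, which fall below the filter on low values. Among them, the mean of probe sets could not change a clock gene's values, since each has 1 probe set. At 2 decimals none of the 6 differences took the opposite sign. The Nr1d2 difference shrank to 0.00 without IL10-/- replicate 2, where its sign is not resolved. Leaving out 1 array at a time gave -0.21 to -0.09 for Per1, 0.02 to 0.13 for Npas2, 0.05 to 0.17 for Cry1, -0.06 to -0.02 for Nr1d1, -0.26 to 0.00 for Nr1d2 and 0.02 to 0.22 for Tef. The genes past the threshold numbered 2 of 6986, and 1 with centring on array medians, 1 with array weights, 1 with the replicate block, 1 without both arrays that stood apart, and 1 to 4 with an array left out. The replicate block changed no call among the clock genes.

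Small differences changed sign. Hlf was -0.01 by quantile normalization and by centring on array medians, and -0.03 to 0.06 with an array left out. Klf10 was -0.02 without both arrays that stood apart and -0.06 to 0.06 with an array left out, and Nfil3 -0.03 to 0.14.

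No pair of clock genes passed under the 5 alternatives that keep all 8 arrays. Of these, the mean of probe sets repeats the main values, because each clock gene has 1 probe set. In the other 9, a single pair could not pass: the smallest p is 0.00694 with 1 array left out and 0.0278 without both arrays that stood apart, and 15 times these are 0.104 and 0.417, so those say nothing of the calls. Signs of r changed. Without both arrays that stood apart, r was -0.08 for Npas2 and Cry1, 0.86 for Npas2 and Nr1d2, -0.17 for Npas2 and Tef, 0.19 for Cry1 and Nr1d1, and 0.13 for Nr1d1 and Tef. Quantile normalization gave 0.33 for Npas2 and Nr1d2, 0.02 for Per1 and Nr1d1, -0.15 for Per1 and Nr1d2, and 0.62 for Cry1 and Nr1d1. Centring on array medians gave 0.28 for Npas2 and Nr1d2, 0.27 for Cry1 and Nr1d1, and 0.41 for Nr1d1 and Nr1d2. Spearman's rho was 0.19 for Npas2 and Nr1d2 and -0.07 for Per1 and Cry1, whose r without centring on group means was -0.11. With an array left out, r ran from -0.19 to 0.65 for Npas2 and Per1, -0.09 to 0.50 for Npas2 and Cry1, -0.40 to 0.38 for Npas2 and Nr1d2, -0.20 to 0.52 for Npas2 and Tef, -0.24 to 0.48 for Per1 and Cry1, -0.37 to 0.24 for Cry1 and Nr1d1, and -0.86 to 0.14 for Nr1d2 and Tef. The cause of these changes was not tested. With 4 arrays a group, the 95% intervals above bound the differences these data allow.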

Other observations

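Of 12 listed glucocorticoid-responsive genes 5 were measured. All 5 differences were negative, as were 3436 of all 6986, with a median of -0.17 against 0.00 over all genes. A shared sign was not particular to this list. All 6 measured stroma and endothelium genes had negative differences, and all 4 B cell genes and 2 red cell and platelet genes positive ones. The 5 glucocorticoid-responsive genes were all highest in IL10+/+ replicate 2, as were 859 of all 6986 genes. Their median difference was -0.09 without that array and -0.32 without IL10+/+ replicate 3. By limma 0 of 5 passed and 0 had an unadjusted p under 0.05. The stress-induced gene Ddit4 differed by -0.52 (SE 0.25), reading 8.16, 7.34, 8.18 and 8.19 in the arrays labelled IL10-/-, against 8.09, 9.14, 8.26 and 8.47 in those labelled IL10+/+. The chemokine receptor gene Cxcr4 differed by -0.34 (SE 0.24) and the NF-kappaB inhibitor gene Nfkbia by -0.15 (SE 0.10). Without IL10+/+ replicate 2 the differences were -0.30 for Ddit4, -0.15 for Cxcr4 and -0.09 for Nfkbia. Without IL10-/- replicate 2 they were -0.31 for Ddit4 and -0.13 for Cxcr4, and without both arrays that stood apart -0.32, -0.21 and -0.24 for Ddit4, Cxcr4 and Nfkbia. The highest signals of Ddit4 and Cxcr4, 9.14 and 10.65, were in IL10+/+ replicate 2, where Nr1d2 was also highest. That array scored -13.3 on the first principal component, the end opposite to the 2 arrays that stood apart. It also had the widest interquartile range of signals, 2.58, and IL10-/- replicate 2 had the narrowest, 2.15. After quantile normalization the range of Nr1d2 over the arrays was 0.59 in place of 0.77, with the same highest and lowest arrays. The lowest signals of Ddit4 and Cxcr4, 7.34 and 9.11, were in IL10-/- replicate 2, where Nr1d2 was lowest. Only these 2 of the 5 genes were lowest there, as were 938 of all 6986 genes, and the rest were lowest in other arrays. Per1, itself a glucocorticoid target, read 8.61 in IL10+/+ replicate 2 and 8.33 in IL10-/- replicate 2, but was highest, at 8.69, in IL10-/- replicate 1.

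In the 12 groups of 4 arrays formed by the 6 clock genes, 0 held an array far from the others by Dixon's test at its 95% critical value, and the highest ratio of gap to range was 0.67.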
